A study of Mus musculus with 6 samples.

Results

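The 10 Bcl2 family genes described here were Bcl2, Bcl2l1, Bcl2l2, Mcl1, Bak1, Bcl2l11, Pmaip1, Bid, Bad and Bmf. They were found by gene symbol among the 23951 genes of one expression table, and all 10 were listed in it. RNA had been sequenced from 3 related mouse melanoma lines, with 2 libraries each. B16-F1 is the parental line of low metastatic potential and came from the American Type Culture Collection. B16-F1R2 came from a lymph node metastasis and B16-F1R2L from a lung metastasis that in turn arose from a lymph node metastasis, and both were supplied by a laboratory at ETH Zurich. All were untreated melanoma cells grown in the same high-glucose DMEM with fetal bovine serum. Each variant is 1 line, so line, source and drift in culture cannot be told apart. Separate cultures are not stated for libraries of the same line, so every p-value measures only the spread between these libraries, which may be technical.

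Bcl2 family proteins decide whether the outer mitochondrial membrane is opened, which releases cytochrome c and starts the caspases. Guardians (Bcl2, Bcl2l1, which encodes Bcl-xL, Bcl2l2, which encodes Bcl-w, and Mcl1) hold the effectors Bax and Bak1 in check. BH3-only proteins (Bcl2l11, which encodes Bim, Pmaip1, which encodes Noxa, Bid, Bad and Bmf) sense stress and bind the guardians or the effectors through a short helix, the BH3 domain. Melanocytes and melanomas are known to lean on several guardians at once, with Bcl2 under the control of the lineage factor Mitf.

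The helix that ties both sides of the family together is shown as coding sequence, because it is the one element that all of these genes share. A stretch of 24 bases was read from the longest coding transcript of each gene in the NCBIM37 (mm9) assembly. It was located by a search of the translated transcript for a leucine or methionine codon that is followed, after 3 codons, by a glycine, alanine or serine codon and an aspartate codon. Exactly 1 match was found in each of 9 genes, in every case within 1 coding exon. Capitals mark the leucine or methionine codon and the aspartate codon, which the search required.
Bcl2 (chr1:108609155-108609178, minus strand): CTCcgccgggctgggGATgacttc
Bcl2l1 (chr2:152655436-152655459, minus strand): CTGagagaggcaggcGATgagttt
Bcl2l2 (chr14:55503354-55503377, plus strand): ATGcgggctgctggaGACgagttt
Mcl1 (chr3:95463359-95463382, plus strand): CTGcggcgcgtgggcGACggcgtg
Bak1 (chr17:27159479-27159502, minus strand): CTTgctctcatcggaGATgatatt
Bcl2l11 (chr2:127972886-127972909, plus strand): CTGcggcggatcggaGACgagttc
Bid (chr6:120847310-120847333, minus strand): CTCgcccaaataggcGATgagatg
Bad (chr19:7025282-7025305, plus strand): CTCcgaaggatgagcGATgagttt
Bmf (chr2:118370839-118370862, minus strand): CTTcagtgtattgcaGACcagttc
The codon just before the aspartate codon encodes glycine in 7 of the 9 genes, while Bad and Bmf carry agc and gca there. Over the 36 pairs of genes, 9 to 17 of the 24 bases were identical, with a median of 13. Bcl2l11 and Bmf were the most alike pair. No stretch is shown for Pmaip1.

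Expression was given as FPKM, fragments per kilobase of transcript scaled to the mapped reads of a library, which allows levels to be compared between genes. The 6 libraries summed to 596657 to 672794 FPKM, and a rough estimate from low values put them at 12600000 to 14700000 reads. Only values in a fixed window were used, which bounds this estimate, so it does not measure the depth. All 7 melanocyte markers (Mitf, Pmel, Tyr, Tyrp1, Dct, Mlana and Sox10) were present in every library. Their summed level was 14970 to 15010 FPKM in B16-F1, 7909 to 8125 in B16-F1R2 and 8924 to 8933 in B16-F1R2L. The members of this sum differed, as Tyr, which encodes tyrosinase, was at 192 and 186 FPKM in the parental libraries and between 14.2 and 25.1 in the metastatic lines, whereas Mitf was at 92.3 and 88.7 in the parental libraries, 79.5 and 83.6 in those of B16-F1R2 and 112 and 127 in those of B16-F1R2L. Of 6 leukocyte markers, Ptprc, Cd3e and Emr1 were listed at 0 throughout, and the summed level was 1.19 to 2.39, 1.93 to 3.07 and 3.13 to 4.18 FPKM in the same order of lines. Lyz2, one of these markers, was at 0.170 and 0.625 FPKM in the parental libraries and between 0.916 and 2.05 in those of the metastatic lines. Of 5 endothelial markers, Cdh5, Kdr and Lyve1 were listed at 0, and the sums lay between 1.55 and 2.38 FPKM. Within these sums, Pecam1 was listed at 0 in both B16-F1 libraries and lay between 0.752 and 1.26 FPKM in the metastatic lines, while Prox1 was at 1.63 to 1.66 in B16-F1, 0.790 to 0.969 in B16-F1R2 and 1.12 to 1.16 in B16-F1R2L. In both comparisons with B16-F1, Prox1 was called lower and Lyz2 and Pecam1 higher (limma), but Lyz2 and Pecam1 were tested only because of their levels in the metastatic lines. The part of these marker levels in the results was not tested. Epithelial sums did not exceed 0.0600 and fibroblast sums 0.170 FPKM. As these are bulk samples, fewer cells of a type and less RNA per cell cannot be told apart.

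Mcl1, a guardian whose protein turns over quickly, was the most abundant of the 4 guardians in every library. It stood at 74.1 and 69.8 FPKM in the parental libraries, 67.6 and 68.6 in those of B16-F1R2 and 69.5 and 72.9 in those of B16-F1R2L. The levels of the 3 lines lay within a narrow band, and those of B16-F1 and B16-F1R2L overlapped. Mcl1 sat above 86.8% of the tested genes in every library.

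Bcl2l1, the guardian Bcl-xL, came next in abundance. Its level was 23.5 and 23.1 FPKM in the parental libraries, 14.3 and 12.9 in those of B16-F1R2 and 15.4 and 14.9 in those of B16-F1R2L. Both B16-F1 libraries were far above the 4 libraries of the metastatic lines, and the lower-lying lines were close to one another. The value is for the gene as a whole and does not separate the long form, which protects cells, from the short form, which lacks part of the protein and promotes death.

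Bcl2l2, the guardian Bcl-w, was read at 7.65 and 8.35 FPKM in the parental libraries, 7.05 and 8.34 in those of B16-F1R2 and 9.25 and 10.7 in those of B16-F1R2L. Both B16-F1R2L libraries were above all others, and those of the remaining lines overlapped. It shares 12.6% of its stretches of 50 bases with Gm20521, an overlapping gene on the same strand, so its value depends on how shared reads were assigned. Bcl2 itself, the founding guardian, was the least abundant of the 4, with 4.41 and 4.33 FPKM in the parental libraries, 3.35 and 3.36 in those of B16-F1R2 and 3.26 and 3.58 in those of B16-F1R2L. Its B16-F1 libraries were the highest, and the metastatic lines overlapped.

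Bak1, the effector that resides on the outer mitochondrial membrane, was at 86.5 and 91.8 FPKM in the parental libraries, 69.5 and 64.8 in those of B16-F1R2 and 61.7 and 58.6 in those of B16-F1R2L. No libraries of different lines overlapped, and the order ran from B16-F1 through B16-F1R2 to B16-F1R2L. In B16-F1 its level was above that of Mcl1, and in both B16-F1R2L libraries it was below.

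Among the BH3-only genes, Bad, which encodes a protein that binds Bcl-2, Bcl-xL and Bcl-w, was the most abundant. It stood at 33.1 and 29.8 FPKM in the parental libraries, 31.8 and 29.1 in those of B16-F1R2 and 25.7 and 23.0 in those of B16-F1R2L. The first 2 lines overlapped, and both B16-F1R2L libraries were below them. Bid, which links death receptors to mitochondria once caspase-8 has cut it, was at 18.4 and 17.4 FPKM in the parental libraries, 17.6 and 18.6 in those of B16-F1R2 and 19.0 and 18.0 in those of B16-F1R2L, and all 3 lines overlapped.

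The remaining BH3-only members were scarce. Bcl2l11, which encodes Bim and can engage every guardian, was at 1.56 and 1.25 FPKM in the parental libraries, 1.41 and 1.15 in those of B16-F1R2 and 1.32 and 1.55 in those of B16-F1R2L, with all lines overlapping. Bmf, whose protein is tethered to the cytoskeleton through dynein light chain, was at 1.33 and 1.06 FPKM in the parental libraries, 0.611 and 0.770 in those of B16-F1R2 and 0.847 and 0.866 in those of B16-F1R2L. Only the B16-F1 libraries reached 1 FPKM, and no libraries of different lines overlapped. With the rough depth estimate and the longest transcript, these values would be about 38.9 to 81.7 reads for Bmf and 79.6 to 115 for Bcl2l11. Each other member above 0 would have at least 313. Pmaip1, which encodes Noxa, the partner of Mcl-1, was listed at 0 in all 6 libraries, while 10 of 10 housekeeping genes were above 0 in every library. A value of 0 in such a table can also be a failed estimate.

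**Figure D1:**
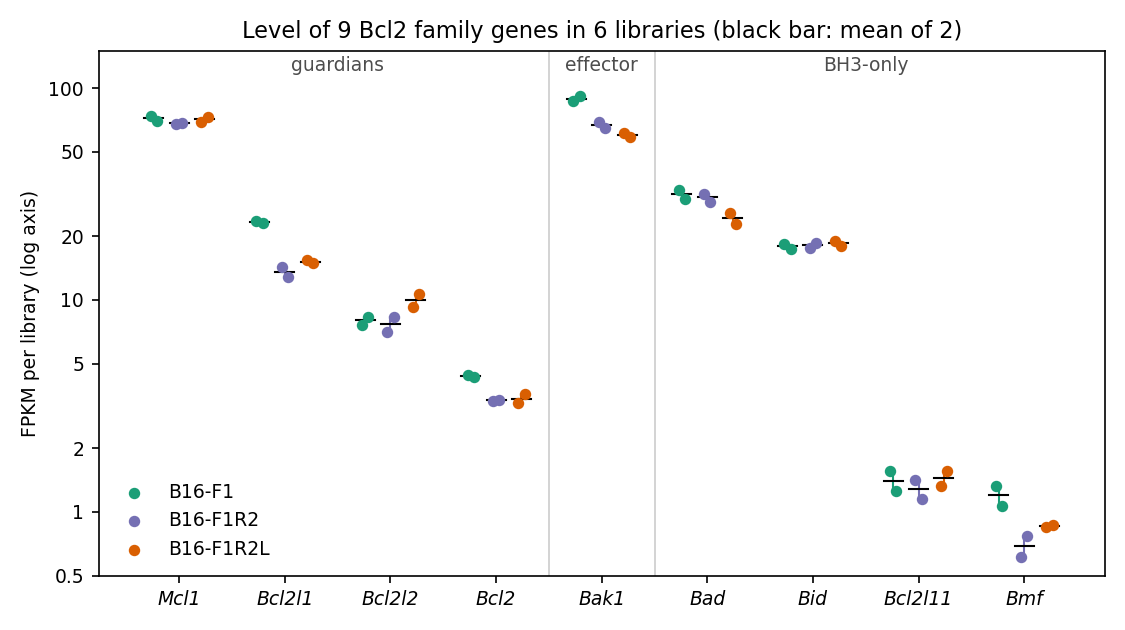
FPKM (log axis) of the 9 members above 0, with 1 point per library, colour for the line and a black bar for the mean of 2 libraries. Bcl2l1 and Bak1 show the B16-F1 points clear above the rest (23.1 to 23.5 and 86.5 to 91.8 FPKM), whereas the points of Mcl1 and Bid from the 3 lines lie together.

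The lines were then compared gene by gene with limma on log2(FPKM + 0.1), with Benjamini-Hochberg adjustment over 11379 tested genes and a threshold of 0.05. A gene was tested where at least 2 libraries reached 1 FPKM, and 9 of the 10 members passed. Bmf passed through its B16-F1 libraries alone, so that its place among the tested genes depended on the line in which it is high. With 2 libraries against 2, an exact permutation test cannot give a p below 0.333, and each call depends on the spread that limma pools over genes. Exons of Bak1, Bad, Bcl2 and Bid overlap those of Ggnbp1, Gpr137, D630008O14Rik and Bcl2l13 on the opposite strand. The library kit kept the strand, but whether it was used in counting is not given in the sources used here, and without it the reads of such a pair cannot be told apart. Fold changes are on the log2(FPKM + 0.1) scale, which understates those of low genes.

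In B16-F1R2 against B16-F1, the comparison of the lymph node variant with its parental line, Bcl2l1, Bak1 and Bcl2 fell and no member rose. Bmf was also called lower, but it was tested only because of its B16-F1 levels, and without the filter on low values its call was lost (limma, adjusted p = 0.12). Among all tested genes 27.2% were called lower and 28.2% higher, 55.4% in all, beside 4 of 9 members lower, Bmf included, and 0 of 9 higher. The median log2 fold change of the 9 members was -0.12, beside 0.0046 over all tested genes. Libraries of the 2 lines did not overlap for 5 of the 9 members, and for 80.0% of the tested genes.

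Bcl2l1 fell from 23.3 ± 0.270 to 13.6 ± 0.977 FPKM (mean ± SD, n = 2 libraries each). Its log2 fold change was -0.78 ± 0.065 (SE; limma, adjusted p = 0.00015). In absolute size on this scale it exceeded that of 85.4% of the tested genes. Bak1 fell from 89.1 ± 3.74 to 67.1 ± 3.30 FPKM, by 0.41 ± 0.056 on the log2 scale (limma, adjusted p = 0.0013). Thus a guardian and an effector were both lower, and neither call was lost when any 1 library was left out. Leaving out a library of a compared line leaves 1 for that line, which is then assumed to vary like the libraries of the other lines, here and in every such fit below.

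Bcl2 fell from 4.37 ± 0.0567 to 3.36 ± 0.00827 FPKM, a log2 fold change of -0.37 ± 0.093 (SE; limma, adjusted p = 0.015). This call was lost when either library of B16-F1 or of B16-F1R2 was left out, with limma adjusted p of 0.071, 0.059, 0.057 and 0.054, although the fold change stayed between -0.38 and -0.36. Bmf, tested through its B16-F1 libraries alone, was at 1.20 ± 0.187 and 0.691 ± 0.112 FPKM. The log2 fold change was -0.71 ± 0.21 (SE), with a limma adjusted p of 0.025, and 0.12 without the filter. Over all alternative settings the fold change of Bmf ranged from -1.16 to -0.38. Without B16-F1 replicate 1 its limma adjusted p was 0.11, and the same value was reached without B16-F1R2 replicate 1.

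The other 5 tested members did not pass the threshold. Mcl1 differed by -0.08 on the log2 scale, with a 95% interval of -0.20 to 0.04, and Bid by 0.02 (-0.12 to 0.16). The intervals of all 5 leave out a change as large as that of Bcl2l1. Bcl2l2 differed by -0.06 (-0.33 to 0.21), Bad by -0.05 (-0.25 to 0.15) and Bcl2l11 by -0.12 (-0.57 to 0.34). The interval of Bcl2l11 includes a change as large as that of Bcl2.

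B16-F1R2L was compared with the same B16-F1 libraries, so its differences share them with those above. Bcl2l1, Bak1, Bad and Bcl2 fell and no member rose, beside 27.1% of tested genes called lower and 29.5% called higher (56.7% in all). Libraries did not overlap for 6 of the 9 members and for 80.8% of the tested genes. The median over the 9 members was -0.35, against 0.017 over all tested genes. Bcl2l1 was at 15.2 ± 0.358 FPKM (n = 2), a log2 fold change of -0.62 ± 0.065 (SE; limma, adjusted p = 0.00040). Bak1, at 60.1 ± 2.20 FPKM, fell by 0.57 ± 0.056 (limma, adjusted p = 0.00031).

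Bad fell from 31.5 ± 2.34 to 24.3 ± 1.97 FPKM between these lines, by 0.37 ± 0.083 on the log2 scale (limma, adjusted p = 0.0096). Without B16-F1 replicate 1 or B16-F1R2L replicate 2, its limma adjusted p rose to 0.063 and 0.052. Bcl2 fell by 0.35 ± 0.093 (limma, adjusted p = 0.019), a call that was lost without either B16-F1 library or B16-F1R2L replicate 1. Over all alternative settings the fold change of Bcl2 ranged from -0.62 to -0.23. Bcl2l2 was 0.31 higher on the log2 scale, with a 95% interval of 0.04 to 0.59, and missed the threshold (limma, adjusted p = 0.053). It passed under 7 of 17 alternative settings, among them a replicate block (0.014), rescaling (0.037) and upper quartile scaling (0.020). Rescaling and upper quartile scaling also moved the median of all tested genes up, by 0.10 and 0.12. Bmf differed by -0.43 (-0.93 to 0.07), Mcl1 by -0.01 (-0.13 to 0.10), Bid by 0.05 (-0.10 to 0.19) and Bcl2l11 by 0.04 (-0.42 to 0.49), none of which passed. After quantile normalization Bmf was at -1.05 and Bcl2l11 at -0.53, and both passed (limma, adjusted p of 0.0065 and 0.046).

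**Figure D2:**
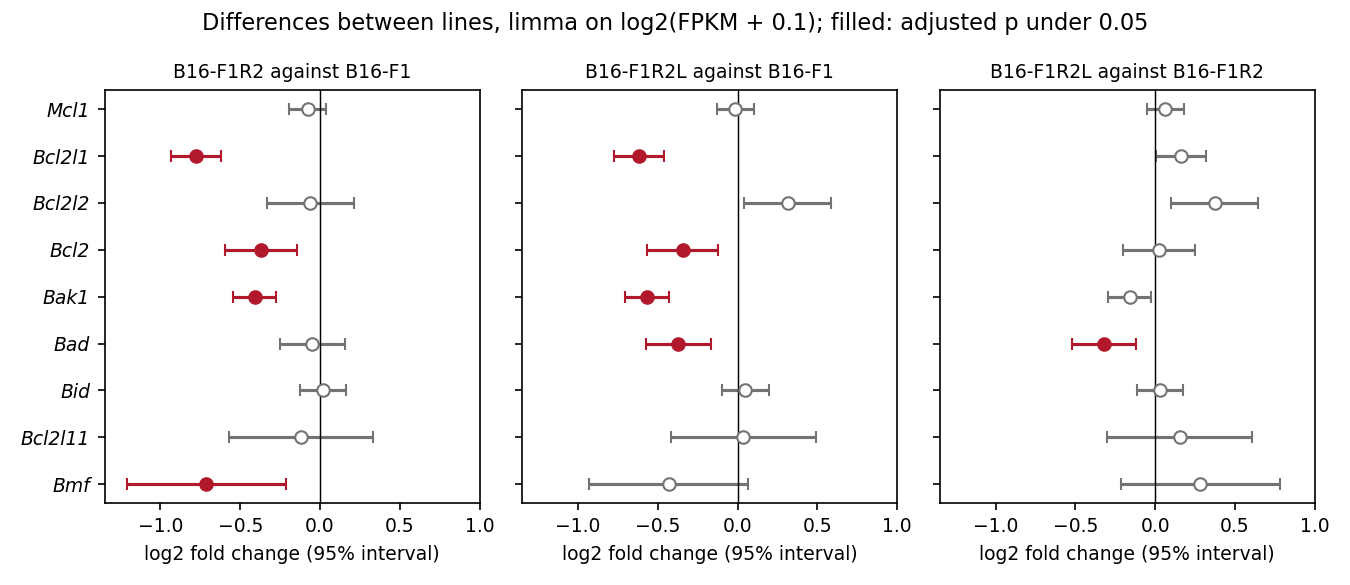
Log2 fold change of the 9 tested members in each comparison of lines, with the 95% interval from limma as the bar and filled symbols for an adjusted p under 0.05. Bcl2l1 and Bak1 are left of 0 in both comparisons with B16-F1, and Bad is the one filled symbol in B16-F1R2L against B16-F1R2.

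The metastatic lines were compared with each other directly. Between B16-F1R2L and B16-F1R2, Bad was the only member past the threshold, beside 10.5% of tested genes called lower and 12.1% called higher (22.6% in all). Libraries did not overlap for 6 of the 9 members and for 65.2% of the tested genes. Bad fell from 30.5 ± 1.89 to 24.3 ± 1.97 FPKM (n = 2 each), by 0.32 ± 0.083 on the log2 scale (limma, adjusted p = 0.039). The call was lost under 11 of 17 alternative settings, among them leaving out any library other than B16-F1R2L replicate 1, with limma adjusted p of up to 0.21.

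The guardians Bcl2l2 and Bcl2l1 were 0.37 (0.10 to 0.65) and 0.16 (0.01 to 0.32) higher in B16-F1R2L on the log2 scale, without passing after adjustment (limma, adjusted p = 0.060 and 0.12). After rescaling both passed (limma, adjusted p = 0.046 and 0.026), and Bcl2l2 also did with a replicate block (0.025). Rescaling also moved the median of all tested genes up by 0.11 in this comparison. Bak1 was at -0.16 (-0.29 to -0.02) with a limma adjusted p of 0.089. Bcl2 differed by 0.03 (-0.20 to 0.25). Mcl1, Bid, Bcl2l11 and Bmf had differences of 0.06, 0.03, 0.15 and 0.28, all with intervals that include 0. The median over the 9 members was 0.064, and 0.022 over all tested genes.

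The make-up of each role group follows from these levels. Mcl1 made up 66.1% to 73.6% of the summed FPKM of the 4 guardians. Bcl2l1 made up 21.4% and 21.9% in the parental libraries, 15.5% and 13.8% in those of B16-F1R2 and 15.8% and 14.6% in those of B16-F1R2L. The ratio of Mcl1 to Bcl2l1 was 3.15 and 3.02 in the parental libraries, 4.74 and 5.33 in those of B16-F1R2 and 4.50 and 4.89 in those of B16-F1R2L. Thus in all 4 libraries of the metastatic lines Mcl1 made up a larger share of guardian transcripts than in either B16-F1 library.

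Within the BH3-only members, a sum without Bbc3 and other BH3-only genes outside the set, Bad and Bid together accounted for most. The share of Bad was 60.9% and 60.2% in the parental libraries, 61.8% and 58.6% in those of B16-F1R2 and 54.9% and 52.9% in those of B16-F1R2L. The share of Bid was 33.8% and 35.1%, 34.3% and 37.5%, and 40.5% and 41.5% in the same order. B16-F1R2L was thus the line with the most even split between these genes. Bcl2l11 and Bmf never exceeded 3.58% and 2.44% of the sum.

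**Figure D3:**
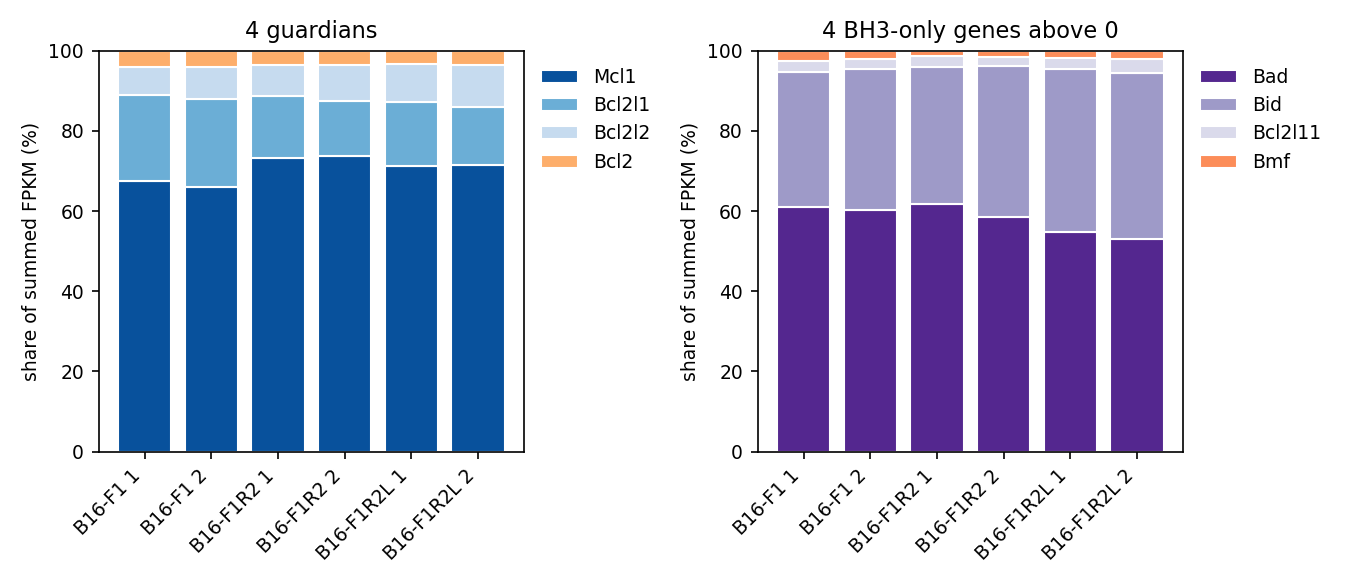
Share of each gene in the summed FPKM of the 4 guardians (left) and the 4 BH3-only members above 0 (right). Each bar is 1 library, and BH3-only genes outside the set, such as Bbc3, are not in the sum. The Bcl2l1 band narrows from 21.4% to 21.9% in B16-F1 to 13.8% to 15.8% in the metastatic lines, and the Bad band is narrowest in B16-F1R2L (52.9% to 54.9%).

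Over the 6 libraries, log2(FPKM + 0.1) of Bcl2 and Bcl2l1 had a Pearson r of 0.95 and that of Bcl2l2 and Bad an r of -0.96, the most extreme values among the 9 members. These are descriptions over 6 points in which the lines are the main source of spread. For Bcl2l1, chosen for its log2(FPKM + 0.1) fold change in B16-F1R2 against B16-F1, the other tested genes with the most similar pattern were Cyb5 (r = 0.999), Fdps (0.998) and Gpr108 (0.997). Such likeness was common, as 1577 tested genes had an r above 0.9 with Bcl2l1. Bid, chosen in the same way as the member with the highest fold change in that comparison although not a called one, was most similar to Mtss1l (0.97), Rprd1b (0.95) and Yy1 (0.95), and 17 genes exceeded 0.9.

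Promoters were searched for the forms of the E-box that Mitf binds, CACGTG and CATGTG, on both strands, so that CATGTG also covers CACATG. In the RefSeq table for GRCm38.p6, 15 windows of 250 bases before a start site belonged to 9 of the members. CACGTG occurred in 0 and CATGTG in 1 of the 15 windows, a window of Bcl2l1, while 6.02% and 12.3% of all 32851 windows held them.

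Of 16 other genes of the family, 7 were tested. In B16-F1R2 against B16-F1, 2 of these rose, 1 fell and 4 did not pass, with a median log2 fold change of 0.073. In B16-F1R2L, 4 rose and 1 fell against B16-F1, and 3 rose and 1 fell against B16-F1R2. Bnip3, a BH3-related mitochondrial protein of mitophagy that hypoxia is known to induce, was at 12.1 and 11.4 FPKM in the parental libraries, 36.4 and 33.1 in those of B16-F1R2 and 54.8 and 62.9 in those of B16-F1R2L. The 3 lines did not overlap, and the level was higher in each metastatic line. The log2 fold change was 1.56 ± 0.083 (SE; limma, adjusted p = 2.6e-05) in B16-F1R2 against B16-F1 and 0.76 ± 0.083 (limma, adjusted p = 0.0046) in B16-F1R2L against B16-F1R2. Without the filter on low values the limma adjusted p of the latter was 0.063.

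Its relative Bnip3l, which encodes the mitophagy receptor Nix, was at 28.6 and 27.4, 48.5 and 48.3, and 55.4 and 62.0 FPKM in the 3 lines, again without overlap. It rose by 0.79 ± 0.062 on the log2 scale in B16-F1R2 against B16-F1 (limma, adjusted p = 0.00012). Bcl2l13, also a mitophagy receptor, fell by 0.36 ± 0.055 (limma, adjusted p = 0.0020). It is the gene that overlaps Bid on the opposite strand.

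Bax, the other main effector, was the most abundant family gene, with 278 and 272 FPKM in the parental libraries, 304 and 275 in those of B16-F1R2 and 254 and 230 in those of B16-F1R2L. Its B16-F1R2L libraries were the lowest, and the other lines overlapped. In B16-F1R2 against B16-F1 it differed by 0.07 ± 0.069 (limma, adjusted p = 0.40), and by 0.14 after quantile normalization, where it passed (0.036). With 1 library left out the difference lay between 0.0011 and 0.15. In B16-F1R2L against B16-F1R2 it fell by 0.26 (limma, adjusted p = 0.042), a call lost under 11 of 17 alternative settings, leaving out any library but B16-F1R2L replicate 1 among them (limma, adjusted p of up to 0.22). The ratio of Bax to Bak1 was 3.21 and 2.96 in the parental libraries, 4.38 and 4.24 in those of B16-F1R2 and 4.12 and 3.93 in those of B16-F1R2L.

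Bok, a further effector, was at 1.14 and 1.28, 0.914 and 0.793, and 1.78 and 2.54 FPKM in the 3 lines, and rose by 1.23 ± 0.21 on the log2 scale in B16-F1R2L against B16-F1R2 (limma, adjusted p = 0.013). The call was lost without either B16-F1R2 library or B16-F1R2L replicate 2 (limma adjusted p of 0.063, 0.056 and 0.062) or without the filter (0.11). Bbc3, which encodes the p53 target Puma, was at 4.06 and 5.14, 4.57 and 5.60, and 6.38 and 6.48 FPKM. It was called only in B16-F1R2L against B16-F1, where it rose by 0.48 ± 0.14 (limma, adjusted p = 0.027). That call was lost without B16-F1 replicate 1 or either B16-F1R2L library, with fold changes of 0.317, 0.495 and 0.473. It was also lost without the filter (limma, adjusted p = 0.15) or after quantile normalization (0.11, with a fold change of 0.28). Bcl2a1a, Bcl2a1b, Bcl2a1c and Bcl2a1d, copies of the guardian A1 that share part of their sequence with one another, were listed at 0 in all libraries.

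Downstream of the mitochondria, all 15 listed genes of cytochrome c signalling, caspases and their inhibitors were tested. In B16-F1R2 against B16-F1, 4 rose and 6 fell, with a median of 0.037 on the log2 scale. In B16-F1R2L, 5 rose and 4 fell against B16-F1, and 2 rose and 1 fell against B16-F1R2. Casp9, the initiator caspase of the apoptosome, fell by 0.48 in B16-F1R2 against B16-F1 (limma, adjusted p = 0.0024). Birc3, which encodes the inhibitor cIAP2, rose there by 0.74 and Endog, a mitochondrial nuclease, by 0.72 (limma, adjusted p of 0.016 and 0.0041). The call of Birc3 was lost without B16-F1 replicate 2 or B16-F1R2 replicate 2 (limma, adjusted p of 0.081 and 0.086), without the filter on low values (0.11) or after quantile normalization (0.15, with a fold change of 0.35). Without the filter the limma adjusted p of Endog was 0.055.

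Of 11 death receptor genes, 7 were tested, of which 2 rose and 3 fell in B16-F1R2 against B16-F1, with a median of -0.17 on the log2 scale. In B16-F1R2L, 3 rose and 3 fell against B16-F1, and 2 rose and 0 fell against B16-F1R2. Tnfrsf10b, the TRAIL receptor, rose by 0.61 in B16-F1R2 against B16-F1 (limma, adjusted p = 0.0098), and Tnfrsf1a, the TNF receptor, fell by 0.46 (0.00027). The adaptor kinase Ripk1 and Cflar, which encodes the caspase-8 inhibitor cFLIP, fell by 0.36 and 0.35 (limma, adjusted p = 0.0081 and 0.0032). Cflar rose again by 0.32 in B16-F1R2L against B16-F1R2 (limma, adjusted p = 0.017). The call of Tnfrsf10b was lost without B16-F1R2 replicate 2 (limma, adjusted p = 0.060) or without the filter (0.076), and that of Ripk1 without B16-F1 replicate 2 (0.058). The later call of Cflar was lost without B16-F1R2 replicate 1 (0.083) or B16-F1R2L replicate 2 (0.082), or without the filter (0.083).

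Of 10 genes whose proteins bind or modify family members, 2 rose and 3 fell in B16-F1R2 against B16-F1, with a median of -0.059 on the log2 scale. In B16-F1R2L, 2 rose and 5 fell against B16-F1, and 2 rose and 3 fell against B16-F1R2. Vdac2, which encodes a mitochondrial channel that binds Bak, rose by 0.31 in B16-F1R2 against B16-F1 (limma, adjusted p = 0.0012). Dynll2, the dynein light chain that tethers Bmf, fell by 0.33 (0.00087), Tmbim6 (Bax inhibitor 1) by 0.33 (0.00053), and Huwe1, a ubiquitin ligase for Mcl-1, by 0.26 (0.0099). The call of Huwe1 was lost without B16-F1 replicate 1 or B16-F1R2 replicate 1 (limma, adjusted p of 0.064 and 0.050) or after upper quartile scaling (0.064). Each of these 4 changes was smaller in size than that of Bcl2l1.

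Of 10 transcriptional regulators of the family, 9 were tested. In B16-F1R2 against B16-F1, 3 fell and 0 rose: Rela, a subunit of NF-kB, by 0.39 (limma, adjusted p = 0.0027), Ddit3, which encodes the stress factor Chop, by 0.39 (0.0048), and Atf4, the factor above Ddit3 in the integrated stress response, by 0.18 (0.021). Without B16-F1 replicate 1 or B16-F1R2 replicate 2 the limma adjusted p of Atf4 was 0.15 and 0.084, and it was 0.077 without the filter on low values, 0.14 after quantile normalization and 0.19 after upper quartile scaling. That of Ddit3 was 0.056 without the filter. The median of the list was -0.18. In B16-F1R2L against B16-F1R2, 3 rose and 0 fell, namely Ddit3 by 1.24 (limma, adjusted p = 0.00089), Atf4 by 0.68 (0.0015) and Mitf by 0.55 (0.0066). Without the filter the limma adjusted p of Mitf was 0.071. In B16-F1R2L against B16-F1, 3 rose and 2 fell, with rises of 0.85 for Ddit3, 0.50 for Atf4 and 0.40 for Mitf (limma, adjusted p of 0.00018, 0.00033 and 0.0032) and falls of Rela and Trp53. Trp53, which encodes p53, was at 93.5 and 93.0 FPKM in the parental libraries, 82.7 and 88.6 in those of B16-F1R2 and 78.9 and 76.6 in those of B16-F1R2L. It fell by 0.26 in B16-F1R2L against B16-F1 (limma, adjusted p = 0.0040) and passed in neither other comparison. After rescaling or quantile normalization this call was lost (limma, adjusted p of 0.066 and 0.053).

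**Figure D4:**
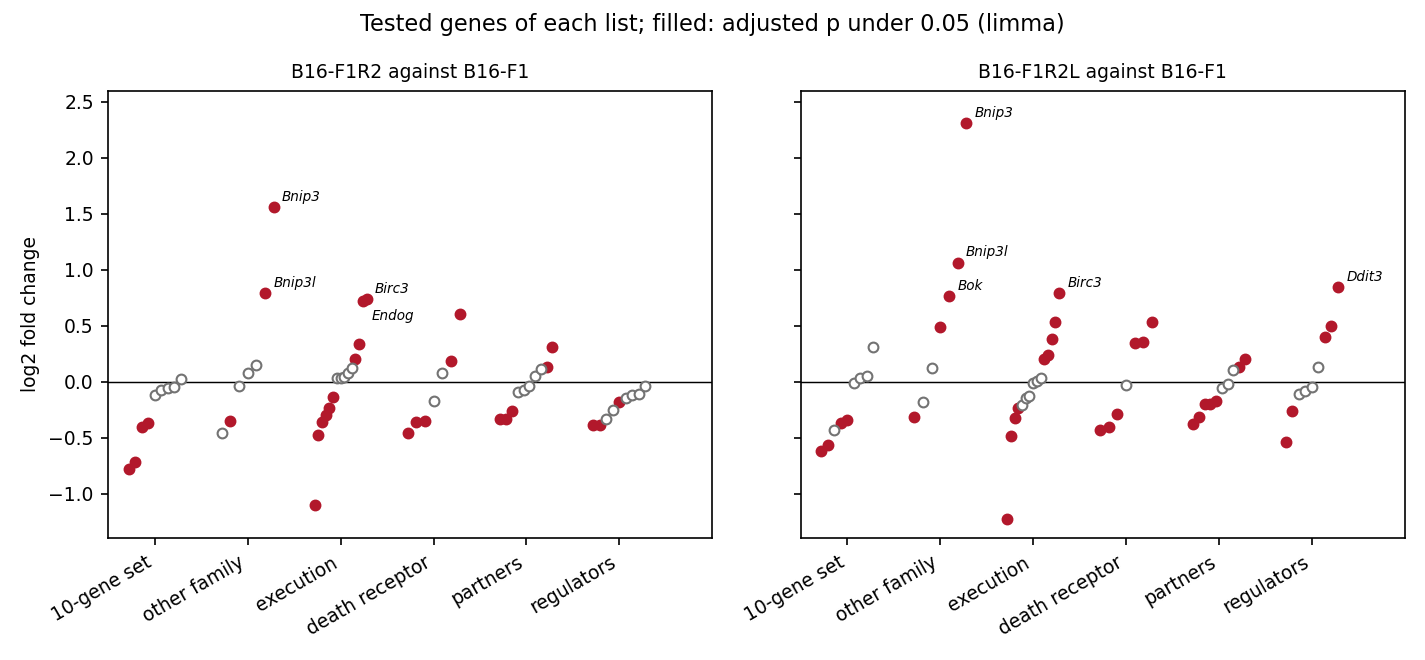
Log2 fold change of every tested gene of the 10-gene set and of the 5 related lists, in B16-F1R2 (left) and B16-F1R2L (right) against the same B16-F1 libraries, with filled symbols for an adjusted p under 0.05 (limma). The called members all lie below 0 in both panels (from -0.78 to -0.37 and from -0.62 to -0.35). Other lists hold called genes on both sides except for the regulators on the left. Among all tested genes 27.2% were called lower and 28.2% higher on the left, and 27.1% and 29.5% on the right. Bmf, called on the left, was tested only through its B16-F1 libraries and lost its call without the filter.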

How the data were processed

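Polyadenylated RNA of 6 libraries (2 for each of 3 lines) was prepared with a stranded kit and sequenced in single-end reads of 50 bases. The authors aligned reads to mm9 with TopHat2 2.0.10, Bowtie 1.0.0 and SAMtools 0.1.1.9 after FastQC 0.10.1. The deposited table holds FPKM for every library, without pooling, and the submitters' processing notes name Cuffnorm. The annotation and its settings are not given in the sources used here. The authors tested counts with DESeq2, and no count test was run here because FPKM are not counts. FPKM keep no exact depth, so reads per library were roughly estimated from low values of genes with 1 transcript of over 1500 bases. Values of FPKM times length in kilobases between 0.05 and 0.1 were taken as 1 read. This window fixes the range that the estimate can take, whatever the depth.

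The test was limma 3.58.1 (R 4.3.3), with linear models, contrasts and trended eBayes, on log2(FPKM + 0.1) of all 6 libraries without a block. Genes under 1 FPKM in more than 4 libraries were left out, which kept 11379 of 23951. On simulated data for B16-F1R2 against B16-F1 with 200 of 11379 genes changed by 1 on the log2 scale, 157 (78.5%) were recovered, with 6 other calls. All other genes were drawn without a difference between lines, whereas 55.4% of tested genes were called in the data. Every member also changed by less than 1, so these rates do not describe the test for the members. Positions, shared stretches and coding sequence came from NCBIM37, which mm9 names, by gene symbol. Alternatives changed the pseudocount, filter, scaling, trend, libraries, replicate block and fold threshold. The members and the lists were chosen with earlier results of these data known. Named genes were all 10 members, the called genes with the 4 largest changes of each list in B16-F1R2 against B16-F1, Bax, Bbc3 and the Bcl2a1 copies, and 1 gene that this rule names is not reported here. Bok, Trp53, the levels of Tyr, Lyz2, Pecam1 and Prox1 and the values of Mitf, Ddit3, Atf4 and Cflar in B16-F1R2L were added after their values were seen. Python 3.11.15 served for the other steps.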

Additional observations from a re-analysis of the deposited data

Results flagged for a closer look

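Bad was the only member called between the metastatic lines, 1 of 9, beside 22.6% of all tested genes (10.5% lower). Its log2 fold change against B16-F1 was -0.05 for B16-F1R2 and -0.37 for B16-F1R2L. The difference between these, which is the direct comparison of B16-F1R2L with B16-F1R2, was -0.323 (limma, adjusted p = 0.039). Both B16-F1R2L libraries were below both B16-F1R2 libraries. Over its alternatives the value ranged from -0.41 to -0.22 and the limma adjusted p from 0.016 to 0.21. The call was lost under 11 of these 17 settings.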

How the results depend on the processing

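With 2 libraries a line and FPKM alone, small changes of scarce genes such as Bmf and Bcl2l11 are at the limit of what can be seen. The falls of Bcl2l1 and Bak1 against B16-F1 were lost only where an absolute log2 fold change of at least 1 was required, which left 0 members in every comparison. A minimum of 5 FPKM left 2 members lower in B16-F1R2 against B16-F1, because Bcl2, Bmf and Bcl2l11 were not tested. The cause of the other shifts was not tested.

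For members, leaving out 1 library gave 2 to 4 lower in B16-F1R2 against B16-F1, 0 to 1 lower in B16-F1R2L against B16-F1R2, and 0 to 1 higher and 2 to 4 lower in B16-F1R2L against B16-F1. In B16-F1R2L against B16-F1R2, 2 members rose after rescaling to a sum of 1000000 (Bcl2l1 and Bcl2l2), and 0 fell without a filter, after rescaling, after quantile normalization, without a trend or with 4 libraries. In B16-F1R2L against B16-F1, 1 member, Bcl2l2, rose after rescaling, upper quartile scaling or with 4 libraries. Bmf lost its call without a filter (limma, adjusted p = 0.12), Bcl2 its call in B16-F1R2 under upper quartile scaling (0.050) and in B16-F1R2L under rescaling (0.12) and upper quartile scaling (0.088), and Bad its call in B16-F1R2L against B16-F1 without a filter (0.083).

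Over all tested genes, deviations of same-numbered libraries correlated at 0.052, -0.10 and 0.079 between lines. That gave no sign of a general pairing by replicate number, but it cannot show that none existed. A replicate block gave 3141 higher and 3040 lower genes in B16-F1R2 against B16-F1, 1217 and 1104 in B16-F1R2L against B16-F1R2, and 3299 and 3031 in B16-F1R2L against B16-F1. Under the block 1 member rose in each comparison of B16-F1R2L, Bcl2l2 in both (limma, adjusted p of 0.025 and 0.014), and Bax fell in B16-F1R2L against B16-F1 (0.023).

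Related lists in B16-F1R2 against B16-F1 held 10 higher and 16 lower calls, 5 higher without a filter, 1 and 1 with the fold requirement, and 6 to 11 higher with 1 library left out. In B16-F1R2L against B16-F1R2 they held 12 and 5, with 5 and 1 without a filter, 7 and 1 with 4 libraries, 1 lower after rescaling, quantile normalization or without a trend, 2 and 0 with the fold requirement, and 4 to 10 and 0 to 2 with 1 library left out. In B16-F1R2L against B16-F1 they held 17 and 15, with 10 higher without a filter, 2 and 1 with the fold requirement and 9 to 16 higher with 1 library left out.

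All tested genes gave 3207 higher and 3098 lower in B16-F1R2 against B16-F1 and 819 and 328 with the fold requirement. In B16-F1R2L against B16-F1R2 the 1378 and 1190 became 381 and 253 without a filter, 2079 and 489 after rescaling, 650 lower without a trend, 874 and 644 with 4 libraries, 116 and 24 with the fold requirement, and 297 to 904 and 140 to 991 with 1 library left out. In B16-F1R2L against B16-F1 the 3361 and 3086 became 957 and 259 with the fold requirement and 2043 lower after rescaling. Rescaling moved the median of all tested genes by 0.10 and 0.11 in B16-F1R2L against B16-F1 and B16-F1R2, with 66.6% and 81.0% of calls higher. Upper quartile scaling moved it by 0.091 and 0.12 in B16-F1R2 and B16-F1R2L against B16-F1, with 63.7% and 68.5% higher.

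For the members and the other family genes named, signs turned only for differences that were not called in the comparison as reported. Of the other named genes, Tmbim6 in B16-F1R2L against B16-F1, called lower, was at 0.034 after quantile normalization (limma, adjusted p = 0.52). In B16-F1R2 against B16-F1, upper quartile scaling gave 0.032 for Bcl2l2, 0.014 for Mcl1 and 0.045 for Bad. Leaving out 1 library there moved Bcl2l2 to between -0.18 and 0.060, Bcl2l11 to between -0.27 and 0.031, Bid to between -0.020 and 0.060, Bad to between -0.12 and 0.028 and Bbc3 to between -0.021 and 0.31. In B16-F1R2L against B16-F1R2, quantile normalization gave -0.12 for Bcl2 and -0.048 for Bcl2l11, and leaving out 1 library moved Bcl2 to between -0.040 and 0.090, Bid to between -0.0092 and 0.068 and Bcl2l13 to between -0.0067 and 0.080. In B16-F1R2L against B16-F1, Mcl1 was at 0.088 after rescaling, 0.10 after upper quartile scaling and 0.12 after quantile normalization, and between -0.058 and 0.029 with 1 library left out. Bcl2l11 was at -0.53 after quantile normalization (limma, adjusted p = 0.046) and between -0.11 and 0.18 with 1 library left out.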
